A study of Mus musculus with 20 samples.

Results

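The cardiac muscle genes Myl7, Myl4, Actc1, Tnnt2, Tnni3, Tnnc1, Myh6, Nppa, Sln and Ryr2, 10 in all, were followed in a mouse breast cancer (BC) model. They were chosen by name as genes of the heart muscle that sheathes the pulmonary veins, and a gene was measured where its symbol stood beside values of all 8 BC libraries. Of the 10 genes, 6 had such a row among the 15465 rows that held an identifier and BC values, of 37583 in the table: Myl4, Actc1, Tnnt2, Tnni3, Myh6 and Ryr2. Myl7, Tnnc1, Nppa and Sln matched no row by symbol or by Ensembl identifier and are not analysed here. Of the 6 measured genes, 4 (Myl4, Tnnt2, Tnni3 and Myh6) reached 1 in 4 or more of the 8 libraries and were tested. Each of the 15465 rows reached 1 in 2 or more libraries, so the measured genes had already met a minimum level.

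The BC libraries came from whole pieces of tumour tissue of 4 mice, with a primary tumour and a lung metastasis from each mouse, all labelled as derived from 4T1 and taken at 28 days. 4T1 is an established mouse mammary carcinoma cell line that spreads to the lung when it grows in the mammary gland, so the 4 tumours of a group share 1 cell line as their source, and no genetic change or treatment separates the groups. The labels give no strain, age or sex of the hosts. The pancreatic tumours of the series are not used here, because their values do not follow the gene symbols. Depth was 15447918 to 28995834 reads per BC library, lowest in lung metastasis 3. The unit is the deposited normalised read count, in which 1 read was worth 0.0337 to 0.0676. A piece of tissue holds several cell types, and fewer cells of a type cannot be told apart from less RNA per cell.

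In the mouse, striated muscle of atrial type runs from the left atrium along the pulmonary veins into the lung, so lung tissue can carry heart muscle transcripts. This muscle contracts when calcium, released from the sarcoplasmic reticulum through the ryanodine receptor Ryr2, binds troponin on the thin filament and lets the myosin heads of the thick filament pull on cardiac actin. Atrial muscle is known by the light chains Myl7 and Myl4, the natriuretic peptide Nppa and the calcium pump inhibitor Sln, and ventricular muscle by Myl2 and Myl3. Tnnt2, Tnni3 and Tnnc1 encode the 3 subunits of cardiac troponin.

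Tnnt2, the most abundant of the 6 genes, was lower in the lung metastases than in the primary tumours, and Myh6, the alpha myosin heavy chain of atrial and adult mouse heart muscle, was read in the lung metastases alone. Of the defining atrial genes Myl4 alone was measured, and its values overlapped between the groups. The genes are therefore called cardiac muscle genes below, with no cell type taken from their values.

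The promoters of Tnnt2 and Myh6 are shown because these genes were the ones called changed, in opposite directions, and that of Actc1 because it holds a match to the CArG box, the motif of serum response factor. All 3 are the 250 bases before the RefSeq start on GRCm38.p6, printed 5′ to 3′ on the strand of the gene. Capitals mark the matches of 4 motifs that were searched on both strands: the CArG box, the MEF2 box, and the short motifs AGATAA, read by a family of zinc finger factors of the heart, and CATTCC, read by TEAD factors. No match overlapped another.
Tnnt2, plus strand, chr1:135836084-135836333: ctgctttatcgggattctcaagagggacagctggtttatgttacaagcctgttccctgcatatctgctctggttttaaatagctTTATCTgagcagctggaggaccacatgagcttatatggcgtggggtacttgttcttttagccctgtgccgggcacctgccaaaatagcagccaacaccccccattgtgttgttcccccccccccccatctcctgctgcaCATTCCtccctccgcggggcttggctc
Myh6, minus strand, chr14:54966608-54966857: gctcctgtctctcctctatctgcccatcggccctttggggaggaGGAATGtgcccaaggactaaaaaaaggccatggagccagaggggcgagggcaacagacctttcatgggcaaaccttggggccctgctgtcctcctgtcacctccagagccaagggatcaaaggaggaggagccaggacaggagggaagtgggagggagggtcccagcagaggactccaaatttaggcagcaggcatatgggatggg
Actc1, minus strand, chr2:114052876-114053125: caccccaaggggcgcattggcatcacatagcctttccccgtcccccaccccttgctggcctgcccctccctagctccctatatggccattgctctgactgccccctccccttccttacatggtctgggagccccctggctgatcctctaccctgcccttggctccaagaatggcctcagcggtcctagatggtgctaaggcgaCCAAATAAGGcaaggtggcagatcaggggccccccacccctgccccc

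CATTCC began 27 bases before the start of Tnnt2 and stood on the opposite strand of Myh6, 206 bases before its start. RefSeq gave 10 promoters for 9 of the 10 genes, with 2 for Tnnt2, and 4 of the 10 held CATTCC, those of Tnnc1 and Myl7 besides. Of all 32851 promoters of this length 12.6% held it. The CArG box stood in the promoters of Actc1 and Myl7 and in 1.47% of all promoters. AGATAA stood in that of Tnnt2 and in 9.99% of all. The MEF2 box stood in 0 of the 10 and in 2.92% of all. These are matches of letters and no evidence of binding.

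The thick filament genes came first. Myh6 stood at 7.75 in lung metastasis 1, 1.42 in 2, 4.19 in 3 and 2.18 in 4, from 196, 40, 62 and 52 reads. It had 0 reads in each of the 4 primary tumours, where 3 reads, the limit that a count of 0 allows, are worth 0.101 to 0.119. The groups did not overlap, which also held for 17.9% of all tested genes (10.4% with the metastases higher). Its mean of 3.89 ± 2.83 (SD, n = 4) was at least 35-fold higher than the floor of 3 reads per primary tumour. The fitted change on the log2(value + 1) scale was 2.11 (SE 0.408, limma adjusted p = 0.00939), higher in 4 of 4 mice. That fitted size is no bound, since it was 5.04 with a pseudocount of 0.1 and 0.78 with a pseudocount of 5. Myh6 is a close copy of its neighbour Myh7, the beta myosin heavy chain, so reads could be shared between these myosin genes. In GENCODE M21 the antisense gene Gm49130 also overlaps the exons of Myh6. Reads of Gm49130 could be counted for Myh6 where the counting did not use strand.

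Myh7, which belongs to the list of ventricular genes, had a higher level per kilobase of exon than Myh6 in each of the 4 lung metastases. It stood at 9.41, 11.8, 41.7 and 5.97 in lung metastases 1 to 4, and at 0.715 in primary tumour 1 and 0 in the other primary tumours. Its log2 change was 3.62 (SE 0.516, adjusted p = 0.00163), again higher in 4 of 4 mice. Like Myh6, it reached 1 in the 4 metastases alone and so was not tested when any 1 of them was left out; with the genes tested held the same it was called each time. Per kilobase of exon, which allows levels of different genes to be set side by side, Myh7 had a mean level of 2.73 in the lung metastases and Myh6 of 0.636. The order of the metastases differed between the neighbours. Myh7 was highest in lung metastasis 3, followed by 2, 1 and 4, whereas Myh6 was highest in 1, followed by 3, 4 and 2. Sftpc and Ager of the alveolar epithelium had the same order as Myh7 but other shares. Lung metastasis 3 held 60.5% of the summed metastasis level of Myh7, 40.5% of Sftpc and 41.7% of Ager. It held the highest metastasis value of 37.9% of all tested genes, so no source is taken from the order. Antisense genes, Mhrt among them, also overlap the exons of Myh7.

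Myl4, the essential light chain of atrial myosin, stood at 12.2, 2.13, 2.37 and 0.84 in lung metastases 1 to 4. In primary tumours 1 to 4 it stood at 0.397, 4.46, 1.25 and 3.35. Lung metastasis 1 lay above all other libraries, and the remaining values of the groups overlapped. The change did not pass the test (log2 change 0.45, SE 0.625, adjusted p = 0.708), and Myl4 was higher in the metastasis of 2 of 4 mice, 30.6-fold in mouse 1 and 1.9-fold in mouse 3. Without lung metastasis 1 the log2 change was -0.13. Exons of Gm22000, on the opposite strand, overlap those of Myl4.

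**Figure D1:**
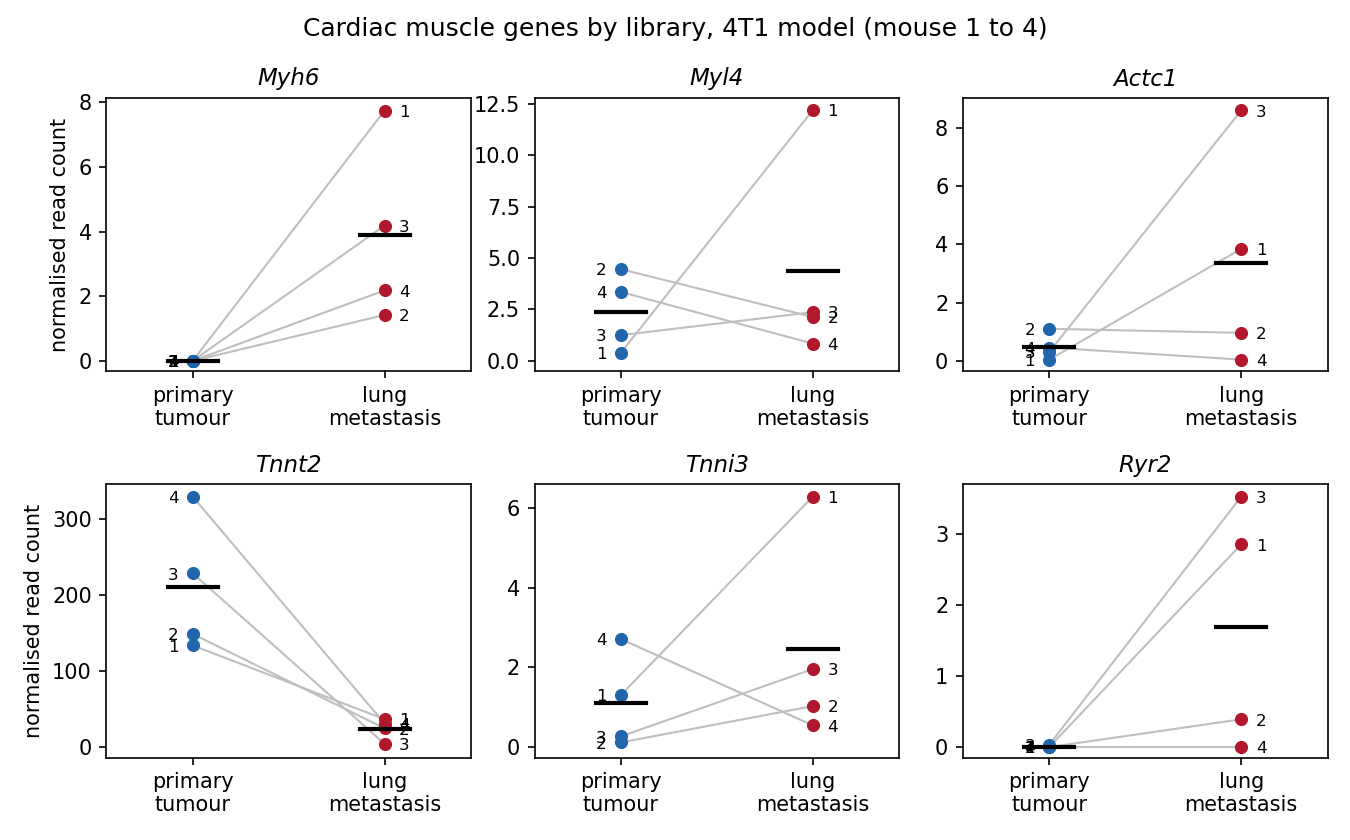
Normalised read counts (vertical axes, linear, one scale per gene) of the 6 measured cardiac muscle genes in 4 primary tumours (blue) and 4 lung metastases (red), with grey lines joining tissues of the same mouse, numbers naming the mouse and bars the group means. Myh6 was at 0 in all primary tumours, Tnnt2 was lower in the metastasis of every mouse, and Myl4, Actc1, Tnni3 and Ryr2 overlapped between the groups.

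Of the thin filament genes, Tnnt2, which encodes the subunit that ties cardiac troponin to tropomyosin, carried most of the reads. It stood at 134, 149, 229 and 330 in primary tumours 1 to 4 and at 36.7, 24.7, 4.19 and 31.0 in lung metastases 1 to 4. The groups did not overlap, which with the metastases lower also held for 7.56% of all tested genes. Lung metastasis 3 was the lowest library. Means were 211 ± 90 in primary tumours and 24.2 ± 14.2 in lung metastases (SD, n = 4 each), 8.72-fold apart. The log2 change was -3.31 (SE 0.564, limma adjusted p = 0.00474), and only 6 of 14003 tested genes had a larger fall. Within mice the primary tumour was 3.66-fold higher in mouse 1, 6.04-fold in mouse 2, 54.6-fold in mouse 3 and 10.6-fold in mouse 4. Without lung metastasis 3 the log2 change was -2.66 (adjusted p = 0.000256). Per kilobase of exon Tnnt2 had a mean level of 167 in the primary tumours, against 1.97 for Myl4, 1.21 for Tnni3 and 0.323 for Actc1.

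Tnni3, the inhibitory subunit of cardiac troponin, did not follow Tnnt2. It stood at 6.29, 1.03, 1.96 and 0.546 in lung metastases 1 to 4 and at 1.31, 0.118, 0.27 and 2.71 in primary tumours 1 to 4. The ranges overlapped, and the log2 change of 0.62 did not pass the test (SE 0.546, adjusted p = 0.535). In 3 of 4 mice the metastasis had more, and as with Myl4 the gene was highest in lung metastasis 1. Primary tumour 4, which had the most Tnnt2, also had the most Tnni3 of the primary tumours. Primary tumour 1, which had the least Tnnt2, had the next most Tnni3.

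Actc1, cardiac alpha actin, was not tested because it reached 1 in 3 libraries. It stood at 3.84, 0.961, 8.59 and 0.042 in lung metastases 1 to 4, the last from 1 read, and at 0.0397, 1.1, 0.303 and 0.458 in primary tumours 1 to 4. Lung metastases 1 and 3 were above every primary tumour, whereas 2 and 4 lay within their range. In a fit with no filter on low values the log2 change was 1.13 (SE 0.609, adjusted p = 0.291), where 8.68% of 15465 genes were called, 6.9% higher. The coding sequence of Actc1 closely resembles those of the skeletal and smooth muscle actins, so its low counts are uncertain.

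Troponin genes of skeletal muscle were read in both tissues; of these, Tnnt3 was chosen after its values were seen. Tnni2, the inhibitory subunit of fast skeletal muscle, averaged 43.7 ± 17.3 in the primaries against 35.3 ± 36.2 in the metastases (log2 change -0.69, limma adjusted p = 0.513). It stood at 23.8, 20.2, 8.45 and 88.7 in lung metastases 1 to 4 and was higher in the metastasis of 1 of 4 mice. Tnnt3, the fast skeletal counterpart of Tnnt2, stood at 16.5 ± 10.5 and 7.83 ± 3.91 (log2 change -0.66, adjusted p = 0.589). Tnnt1, of slow skeletal muscle, stood at 0.779 ± 0.767 and 2.6 ± 2.65 (log2 change 0.85, adjusted p = 0.357). Per kilobase of exon, the mean level of Tnni2 in primary tumours was 50.2 and that of Tnni3 1.21, so the skeletal gene was the more abundant inhibitory subunit transcript.

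**Figure D2:**
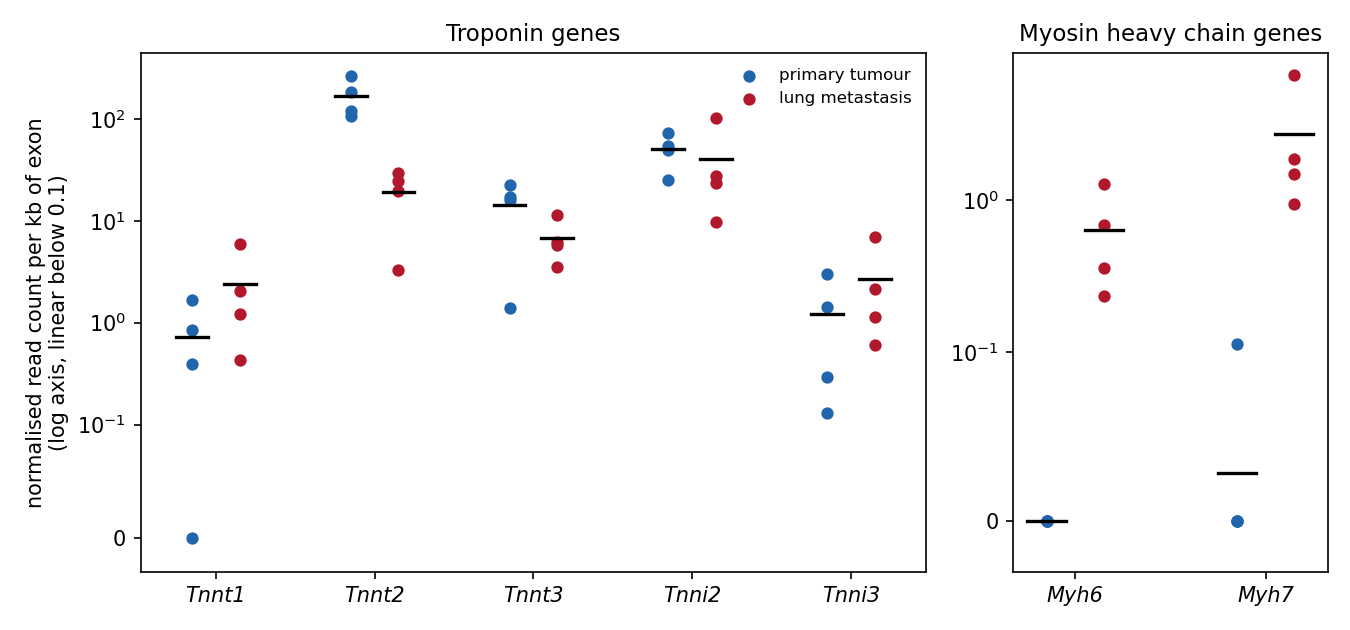
Normalised read counts per kilobase of exon (vertical axes, logarithmic above 0.1 and linear below) of 5 troponin genes and 2 myosin heavy chain genes in primary tumours (blue) and lung metastases (red), 4 libraries each, with bars at the group means. Tnnt2 was the highest troponin gene in primary tumours, Tnni2 lay above Tnni3 in both tissues, and Myh7 lay above Myh6 in the metastases.

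Ryr2, the calcium release channel of the heart, was read in lung metastases 1, 2 and 3 at 2.85, 0.391 and 3.52 and not in lung metastasis 4, where the 0 reads allow up to 0.126. In the primary tumours it had 1 read in all, in tumour 3, and was at 0 in tumours 1, 2 and 4. Lung metastases 1 and 3 stood apart from the other 6 libraries. It was not tested because 2 libraries reached 1, and with no filter on low values its log2 change was 1.14 (SE 0.477, adjusted p = 0.178). Of the 6 genes it had the lowest mean level in the lung metastases per kilobase of exon, at 0.0926.

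In counts, 1 of the 4 tested cardiac muscle genes was called higher in lung metastases (Myh6) and 1 lower (Tnnt2), where 9.13% of all 14003 tested genes were called, 7.18% higher and 1.96% lower. The median log2 change of the 4 was 0.54, against -0.06 over all tested genes. Since a gene such as Myh6 passed the filter only through the group where it was high, these counts describe the genes and carry no test of the list. The summed level of the 6 genes was 136 to 337 in primary tumours and 24.8 to 69.6 in lung metastases, nearly all of it Tnnt2 in the former.

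Without Tnnt2, the summed level of the 5 remaining genes was 32.9 in lung metastasis 1, 5.94 in 2, 20.6 in 3 and 3.61 in 4. In primary tumours 1 to 4 it was 1.75, 5.68, 1.85 and 6.52. Lung metastases 1 and 3 were thus above all primary tumours, and lung metastases 2 and 4 lay within their range. All 5 genes had their 2 highest metastasis values in libraries 1 and 3, which 23% of all 15465 rows did as well. Tnnt2 did not, with its lowest value in 3. Lung metastasis 1 held the highest metastasis value of Myl4, Tnni3, Myh6 and Tnnt2, which it did for 15.6% of tested genes, against 20% for lung metastasis 2, 37.9% for 3 and 26.5% for 4.

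The same libraries were high in genes of other cell types, named here after their values were seen. Lung metastases 1 and 3 held 83% of the summed metastasis level of Myl4, 83.9% of Tnni3, 76.8% of Myh6, 92.5% of Actc1 and 94.2% of Ryr2. They held 86.6% for Scgb1a1, the secretoglobin of airway club cells, 88.8% for Foxj1, the regulator of motile cilia, and 89.7% for Myh11, smooth muscle myosin. For the alveolar genes Sftpc and Ager the shares were 60.1% and 60.3%. Over whole lists, the pattern of libraries 1 and 3 on top was held by 4 of 15 lung epithelium markers, 0 of 8 mesothelium, 7 of 10 smooth muscle, 9 of 11 endothelium and 10 of 10 neutrophil markers. Markers of several other cell types thus shared the pattern.

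**Figure D3:**
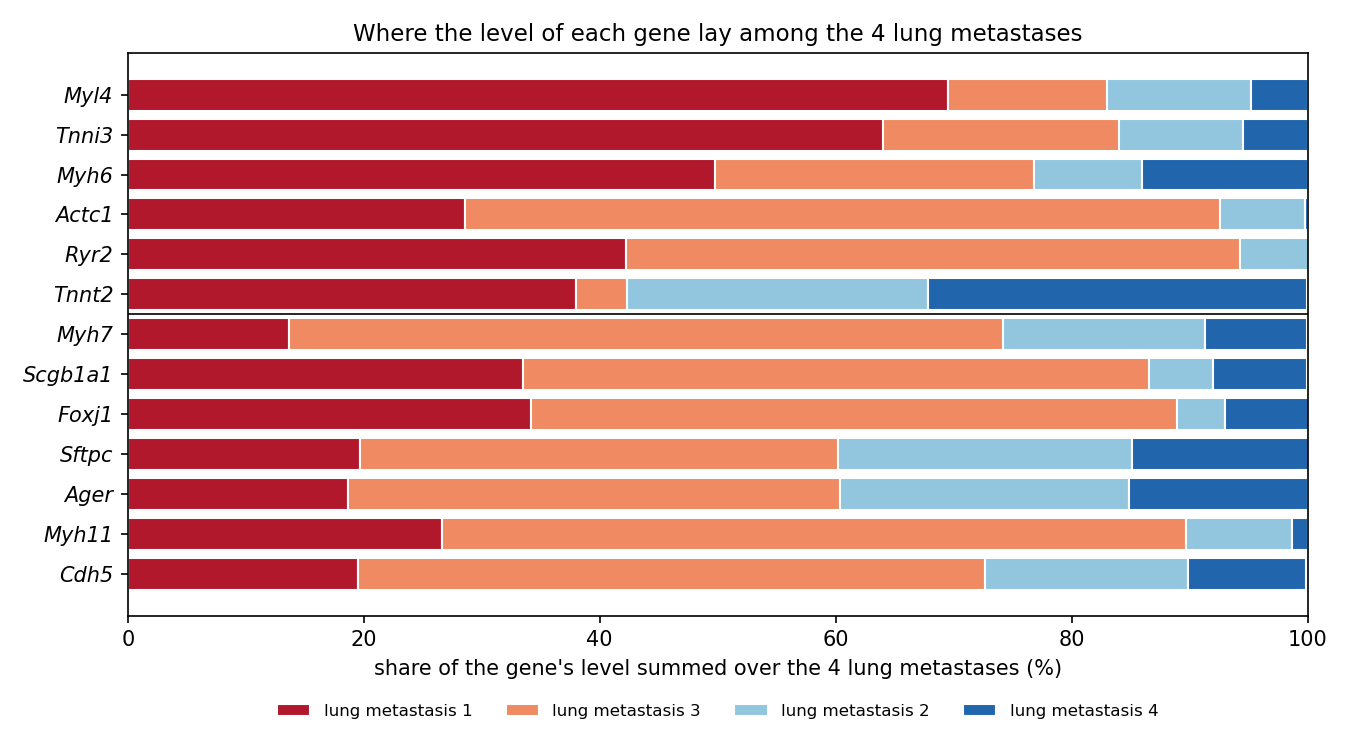
Share of each gene's level summed over the 4 lung metastases (horizontal axis, percent) that lay in each metastasis, for the 6 measured cardiac muscle genes (above the line) and 7 genes of other lists. Lung metastases 1 and 3 (red and orange) held 76.8% to 94.2% for the cardiac genes other than Tnnt2, and 60.1% for the alveolar gene Sftpc.

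The lung epithelium markers themselves were in every metastasis. Their summed level was 7689 to 35259 in lung metastases, highest in 3 and lowest in 4, and 105 to 131 in primary tumours. Of these markers 13 of 15 were called higher. Over all tested genes 7.18% were called higher, a share that stands beside this count and the others of this paragraph. Myh6, Myh7 and Ryr2 were read in tissue that carried these markers, and the part of normal lung in their values was not tested. Endothelium markers summed to 763 to 2871 in the metastases against 348 to 1058 in the primaries, with 6 of 11 called higher. Neutrophil markers summed to 7479 to 28412 and 196 to 1157, with 9 of 10 called higher. Mesothelium markers summed to 204 to 558 and 65.3 to 161, with 7 of 8 called higher and Nkain4 and Rspo1 at 0 in all primary tumours. Their parts in the values of the cardiac genes were not tested either.

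Other genes of the heart were taken from 8 lists of 114 genes, of which 68 had a row and 54 were tested. By limma 16 were called higher and 0 lower in the lung metastases, or 29.6% of those tested, with a median log2 change of 0.45. Over all 14003 tested genes 7.18% were called higher and 1.96% lower, with a median log2 change of -0.06. The same shares stand beside the counts of each list below. Leaving out 1 library lowered the 16 to 7 without lung metastasis 1, 9 without lung metastasis 2 or 3 and 10 without primary tumour 4, in fits where fewer genes reached the minimum level or fewer libraries were compared. Several of the 16 are known from cells of the lung as well as from the heart, and the lists were not tested as sets. Among the 16, Myh7, Gata6, Tbx5, Zfpm2 and Cacnb2 reached 1 in the metastases alone. They passed the filter only through the group where they were high, so these counts and shares carry no test of the lists. Over all 8 libraries no gene was called lower by limma or edgeR, 1 was lower at an unadjusted limma p under 0.05, and 1 (Hspb6) was called lower by DESeq2, as it was by limma without primary tumour 1.

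**Figure D4:**
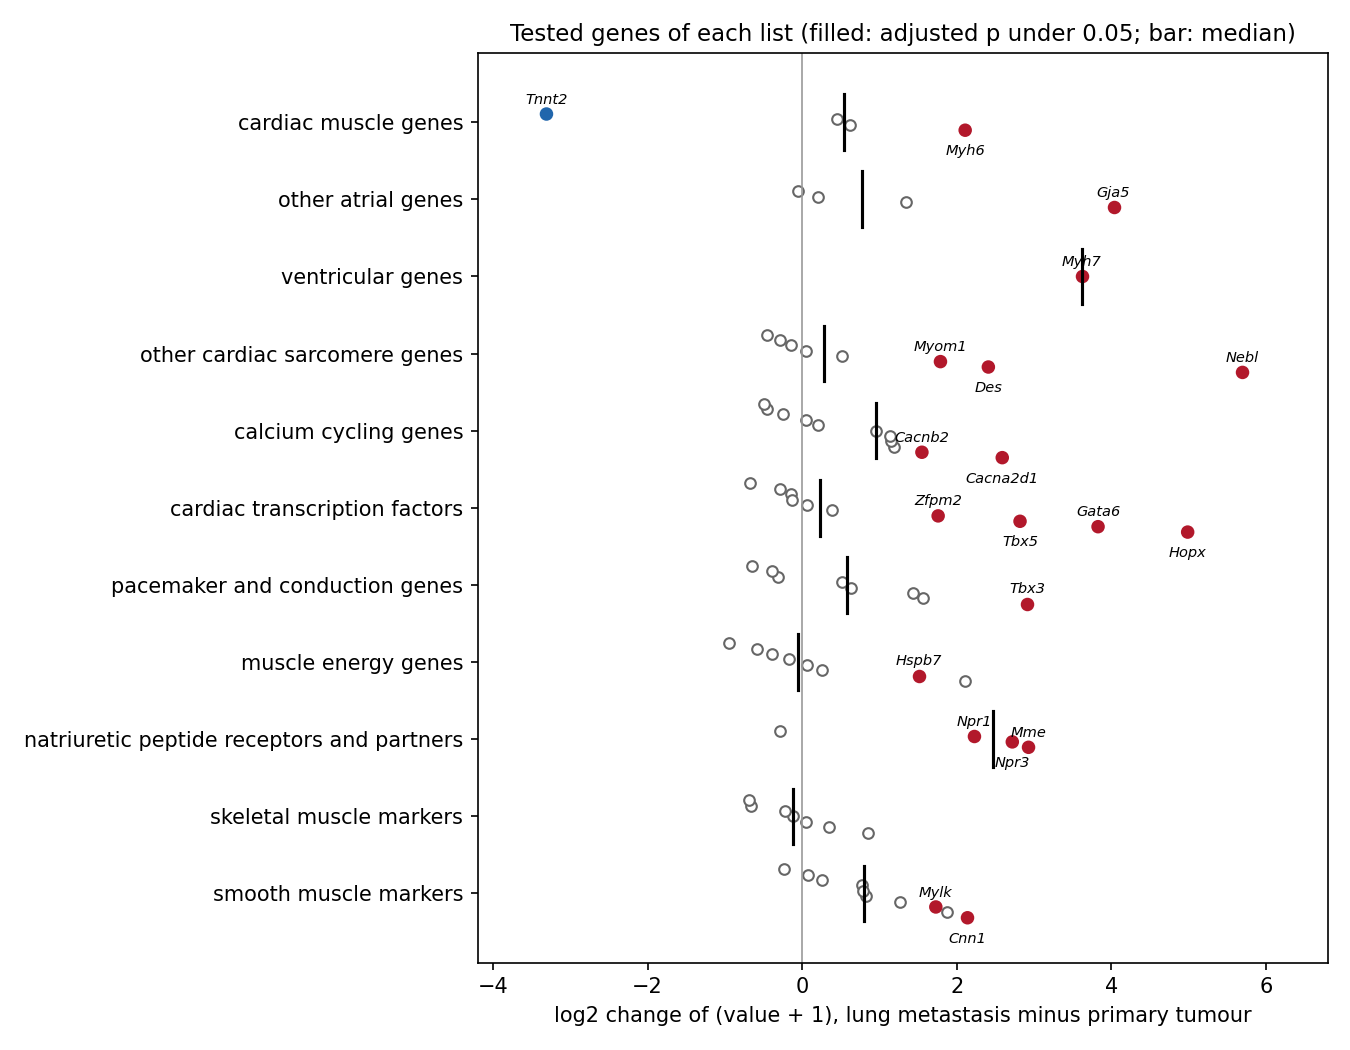
Log2 change of (value + 1) between lung metastases and primary tumours (horizontal axis) of the tested genes of the cardiac muscle list, 8 further cardiac lists and the skeletal and smooth muscle markers, with filled points at a limma adjusted p under 0.05 and a bar at the median of each list. Tnnt2 at -3.31 was the only called fall, and the skeletal muscle markers held no call.

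The chamber lists gave little of the rest of an atrial set. Of 12 other atrial genes 6 had a row and 4 were tested, and Gja5 was called higher. Gja5 encodes connexin 40, a gap junction protein of atrial muscle and of arterial endothelium, and averaged 33.7 ± 16.7 in the metastases against 1.14 ± 0.947 in the primaries (log2 change 4.03, adjusted p = 0.000314). Dkk3, a secreted Dickkopf family protein, stood at 29 ± 6.57 and 12.1 ± 6.1 without passing (adjusted p = 0.0796), though it passed with array weights and DESeq2 (0.0387 and 0.0371). Pam, the enzyme that amidates peptides, and Stard10, a lipid transfer protein, were near level, at 249 ± 37.3 against 256 ± 32.8 and 51.3 ± 19 against 41.9 ± 1.88. The atrial genes too low to be tested are named after their values were seen. Kcna5, an atrial potassium channel, had 0.128 ± 0.257 in the metastases and 1.18 ± 0.671 in the primaries, lower in the metastasis of all 4 mice, and with no filter on low values its log2 change was -0.93 (adjusted p = 0.113). The natriuretic peptide gene Nppb had 1.22 ± 0.925 and 0.736 ± 0.494, higher in 2 of 4 mice. Of 7 ventricular genes 2 had a row. Besides Myh7 this was Hey2, a Notch target of the ventricle and of arteries, which was not tested and stood at 2.2 ± 2.82 and 0.625 ± 0.594.

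Sarcomere genes outside the 10 were called in 3 of 8 tested, with a median log2 change of 0.28. Nebl, which encodes the actin-binding nebulette of cardiac Z-discs, averaged 74.6 ± 54.6 in the metastases against 0.268 ± 0.536 in the primaries (log2 change 5.70, adjusted p = 0.000107), with 0 reads in primary tumours 2 to 4. Desmin, the intermediate filament of all muscle cells, encoded by Des, stood at 44.3 ± 21.7 and 8.65 ± 7.56 (log2 change 2.41, adjusted p = 0.0161). Its call ended without lung metastasis 1 (adjusted p = 0.0725) or primary tumour 3 or 4 (0.053 and 0.0585). The M-band gene Myom1 stood at 4.97 ± 2.54 and 0.674 ± 0.509 (log2 change 1.79, adjusted p = 0.0157). It was not past the threshold without lung metastasis 1 (0.0687) or primary tumour 4 (0.0616). Ldb3, a Z-disc adaptor, stood at 1.99 ± 1.21 and 1.04 ± 0.503 (adjusted p = 0.437).

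Calcium cycling genes, the partners of Ryr2, were called in 2 of 11 tested, both auxiliary subunits of voltage-gated calcium channels. Cacna2d1 averaged 11.1 ± 4.96 in the metastases against 1.02 ± 0.805 in the primaries (log2 change 2.59, adjusted p = 0.00373, and 0.0529 with edgeR). Cacnb2 stood at 2.86 ± 1.21 and 0.304 ± 0.383 (log2 change 1.55, adjusted p = 0.0205). The call of Cacnb2 ended without primary tumour 2, 3 or 4 (0.0596, 0.0703 and 0.0569), with edgeR (0.146) and with DESeq2 (0.0506). Cacnb2 reached 1 in the 4 metastases alone and so was not tested without any 1 of them. With the genes tested held the same, its call also ended without lung metastasis 1 (0.0635). Phospholamban, the inhibitor of the sarcoplasmic calcium pump encoded by Pln, was higher in 4 of 4 mice at 1.77 ± 0.567 against 0.465 ± 0.505 without passing (adjusted p = 0.125). The sodium-calcium exchanger gene Slc8a1 stood at 8.13 ± 2.99 and 3.49 ± 2.52 (adjusted p = 0.161).

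Among the transcription factors 4 of 10 were called higher, and each is also known from lung cells or from embryonic lung. Gata6, Tbx5 and Zfpm2 reached 1 in the 4 metastases alone, so that the count was 1 of 7 tested without any 1 metastasis, and 4 of 10 when the genes tested were held the same. It was 2 with a minimum of 5. Gata6 averaged 17 ± 7.5 in the metastases against 0.222 ± 0.393 in the primaries (log2 change 3.83, adjusted p = 0.000191). Tbx5, a T-box factor of atria and lung mesenchyme, stood at 8.54 ± 8.64 and 0.0337 ± 0.0674 (log2 change 2.82, adjusted p = 0.00669), with 4 reads in all primary tumours. Hopx, also a marker of alveolar type 1 cells, stood at 209 ± 143 and 6.63 ± 7.15, and Zfpm2, a cofactor of GATA factors, at 4.39 ± 2.04 and 0.492 ± 0.153.

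Pacemaker and conduction genes had 1 call in 8 tested. Tbx3, a T-box repressor of the sinus node that is also known from lung mesenchyme, averaged 37.6 ± 33.8 in the metastases against 3.05 ± 0.375 in the primaries (log2 change 2.91, adjusted p = 0.00358). Popdc2, a cyclic AMP binding membrane protein, stood at 4.35 ± 4.47 and 0.57 ± 0.235 (limma adjusted p = 0.112, 0.00235 with DESeq2 and 0.031 with array weights). Kcnj2, an inward rectifier potassium channel, stood at 32.8 ± 34.6 and 7.95 ± 4.55 (adjusted p = 0.138; 0.0144 with DESeq2 and 0.0256 with array weights). The connexin genes Gja1 and Gjc1 stood at 452 ± 244 against 497 ± 61.1 and 26.9 ± 4.95 against 33.2 ± 2.45. The channel genes Cacna1d (14.1 ± 8.62 and 8.43 ± 3.78) and Kcnq1 (6.57 ± 6.42 and 3.6 ± 2.43) did not pass, and Cacna1g (0.339 ± 0.373 and 1.19 ± 0.268) and Scn4b (0.508 ± 0.451 and 0.571 ± 0.473) were too low to be tested.

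Muscle energy genes had 1 call in 8 tested and a median log2 change of -0.06. Hspb7, a small heat shock protein of heart muscle, averaged 2.83 ± 1.8 in the metastases against 0.341 ± 0.616 in the primaries (adjusted p = 0.0462, and 0.0911 in the fit blocked by mouse). Its call ended without any library but primary tumour 2 (0.0621 to 0.143), with a pseudocount of 5, with edgeR and with DESeq2. Pdk4, a kinase that restrains pyruvate oxidation, stood at 9.9 ± 7.84 and 1.87 ± 2.97 (adjusted p = 0.0746). It passed with array weights (0.0162) and without lung metastasis 4 (0.0427) or primary tumour 1 (0.02). Hspb6 (4.7 ± 1.2 and 10.5 ± 4.19) passed as lower without primary tumour 1 (0.0497) and with DESeq2 (0.0441), and Slc25a4, the ADP/ATP carrier of heart and muscle, stood at 374 ± 149 and 512 ± 14.6 without passing. Myoglobin, encoded by Mb, is a heart and muscle gene of this list chosen after its values were seen, and it stood at 1.78, 0, 0.676 and 0 in lung metastases 1 to 4 and at 1.59, 0.434, 0 and 0 in primary tumours 1 to 4.

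The hormone Nppa is not analysed here, but its receptors were measured. Npr1, the guanylyl cyclase receptor of atrial natriuretic peptide, averaged 33.9 ± 23.4 in the metastases against 5.52 ± 1.24 in the primaries (log2 change 2.23, adjusted p = 0.00633). The clearance receptor gene Npr3 stood at 44.6 ± 45.9 and 4.26 ± 1.87 (log2 change 2.72, adjusted p = 0.0135, and 0.052 without primary tumour 4). Mme, which encodes the peptide-degrading enzyme neprilysin, stood at 17.6 ± 16.8 and 0.863 ± 1.25 (adjusted p = 0.0363). Its call ended without lung metastasis 1, 2 or 3 or primary tumour 1, 2 or 4 (0.0533 to 0.112), with edgeR and with a pseudocount of 5. Npr2, the receptor of C-type natriuretic peptide, stood at 31.9 ± 12 and 37.9 ± 7.43 (adjusted p = 0.547). In all, 3 of 4 tested genes of this list were called higher.

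Markers of other muscle types were read in both tissues. Of 24 skeletal muscle markers 9 had a row and 7 were tested, and 0 were called by limma (0 at an unadjusted p under 0.05, 0 by edgeR and 0 by DESeq2). Their summed level was 32 to 103 in the metastases against 31.5 to 108 in the primaries. All 10 smooth muscle markers were tested and 2 were called higher, with summed levels of 278 to 536 in the metastases against 175 to 337 in the primaries. These were Mylk, the myosin light chain kinase (95 ± 68 against 25.1 ± 11.6, adjusted p = 0.0384, and 0.0562 in the blocked fit), and Cnn1, a calponin of smooth muscle (11.2 ± 9.36 against 1.42 ± 1.48, adjusted p = 0.0472, and 0.0708 in the blocked fit). The call of Mylk ended without lung metastasis 1 or 2 or primary tumour 1, 3 or 4 (0.0729 to 0.12), and that of Cnn1 without lung metastasis 1 or 3 or primary tumour 1, 3 or 4 (0.0718 to 0.147), with edgeR and with a pseudocount of 5.

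The 6 measured genes lay at different distances from their mean profile over the 8 libraries, with Tnnt2 far from the rest. The likeness of a gene was taken as the root mean square difference, over the 8 libraries, between its centred log2(value + 1) and the centred mean of the 6 genes. Tnni3 (0.471), Myl4 (0.516) and Ryr2 (0.569) were nearest to their common mean, followed by Actc1 (0.772) and Myh6 (0.916), and Tnnt2 was farthest at 2.07. The mean includes Tnnt2, so the distances do not show whether the genes other than Tnnt2 share a profile. The nearest genes outside all lists were Gm11641 (0.256), Zfp667 (0.259), Phf7 (0.261), Zfp882 (0.273), Slamf7 (0.279) and Tmem229b (0.279), none of which was called by limma. Each had its highest value in lung metastasis 1, as Myl4, Tnni3 and Myh6 had, at 7.24 for Gm11641 and 12.7 for Zfp667. These 6 were nearer to the mean profile than any of the cardiac genes that made it. They were picked as the nearest of all tested genes outside the lists, so no conclusion is drawn from that.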

How the data were processed

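RNA of bulk tissue was made into TruSeq libraries, per the labels' protocols, and the submitters' processing notes name mm9. The aligner, the counter and the gene models are not given in sources used here. The authors deposited signal values: reads per gene, scaled to a library size (column totals 962401 to 1044330). Whole reads were recovered in 100% of the values, within 0.05 reads. The 12 pancreatic columns were not used. Genes that reached 1 in 4 or more of 8 libraries were fitted with limma 3.58.1 (R 4.3.3; trend, log2(value + 1), group means), with Benjamini-Hochberg adjustment over 14003 genes and a threshold of 0.05; this scale understates the change of low genes. Adjusted p-values are from limma unless edgeR 4.0.16 or DESeq2 1.42.0, run on the recovered reads, is named. The fit was tested on simulated data. Fold bounds use 3 reads per library, which cover counting error only. Exon lengths are unions of GENCODE M21 exons (GRCm38). Titles name the mouse, so libraries pair by animal; deviations of libraries of 1 mouse correlated at -0.151 to 0.0962 (median 0.0208). The genes, and the lists beside them, were chosen with earlier results of these data known. Named are the 10 genes, up to 4 genes of smallest p in each list described, all ventricular and pacemaker genes with reads, at most 2 genes of each list of other cell types, and the 6 genes nearest in profile; exceptions are said to be chosen after their values were seen. The values of 1 gene so named are not reported here. Alternatives were other pseudocounts, filters, scaling, tools, array weights, a mouse block and leaving out each library.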

Additional observations from a re-analysis of the deposited data

Results flagged for a closer look

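In 15 of 120 groups of 4 libraries, 1 library stood far from the others, its gap to the nearest taking more of the group's range than Dixon's test allows at the 95% level; chance gives about 1 in 20 such groups where values vary freely. That rate does not apply to the primary tumours for Ryr2, Myh7, Nebl and Tbx5, where 3 libraries at 0 made any read in the fourth stand apart, so the number found is not set against chance. Among the cardiac muscle genes these were Myl4 in lung metastasis 1 (12.2) and the single read of Ryr2 in primary tumour 3 (0.0337). Myh7 was far above the rest in lung metastasis 3 (41.7) and in primary tumour 1 (0.715). In lung metastasis 3, Kcnj2 (84.3) and the neutrophil granule gene Ngp (2306) were also high, and in lung metastasis 2 Pln (0.925) was low. In primary tumour 1 the high genes were Nebl (1.07), Pdk4 (6.32) and the neutrophil granule genes Camp (10.8) and Ngp (31.7). In primary tumour 2 they were Hspb7 (1.26) and Cnn1 (3.63), and in primary tumour 3 Gata6 (0.809) and Tbx5 (0.135).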

How the results depend on the processing

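Calls over all genes numbered 1279, and 1985 with DESeq2, 2283 with array weights and 563 to 1155 when a library was left out. With the genes tested held the same, an alternative added after seeing the data, 711 to 1603 were called (851, 852 and 711 without primary tumours 1, 3 and 4). Of the cardiac muscle genes 2 were called. The count was 1 under the filter of at least 5 in 4 or more libraries, which Myh6 did not pass. It was 1 to 2 with a library left out, where Myh6 missed the filter without any 1 of the lung metastases. Among the called genes of the other cardiac lists, Myh7, Gata6, Tbx5, Zfpm2 and Cacnb2 missed it likewise. With the genes tested held the same, 2 of the cardiac muscle genes were called each time. Of the other cardiac genes 16 were called, 10 under the filter of at least 5 and 7 to 16 with a library left out. With the genes tested held the same 10 to 17 were called (10 without primary tumour 4). With the mouse as a replicate block the counts were 1112, 2 and 15, and the block ended the calls of Hspb7, Mylk and Cnn1 and of no other named gene. Of 1315 values of 60 named genes under alternatives, 12 reversed. These were all of genes not called, and the ranges given are over the fits with 1 library left out. Myl4 was at -0.13 without lung metastasis 1 (range -0.13 to 0.82) and at 0.92 with DESeq2. Stard10 was at -0.01 and Pam at 0.04 with array weights. Pam was also at 0.06 without lung metastasis 3 and 0.01 without primary tumour 4 (range -0.13 to 0.06). Gja1 was at 0.16 without lung metastasis 3 (range -0.67 to 0.16). Zfp882 was at -0.13 without lung metastasis 1 (range -0.13 to 0.29). The causes were not tested. Low levels limit Actc1 and Ryr2, with 1 to 127 and 0 to 72 reads per library, and lung metastasis 3 had the lowest depth.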
